A study of Mus musculus with 3 samples.

Results

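Myh6, Myl3, Nppa and Dhrs7c are genes of heart muscle cells that were measured here in RNA from whole lung. They were chosen by symbol in the authors' deposited lists of probe sets at least 2-fold apart between samples, which name 2944 genes. Each of the 4 genes had 1 probe set there, so the account covers 4 of the 45101 probe sets on the arrays. Because membership required a listing, the differences below are what chose the genes. They are given as a description with no test.

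RNA of 3 lungs was profiled on Affymetrix arrays, 1 array each, all from mice 16 weeks old. The KAT lung came from a KA/KA-Lori-Ikkα mouse given a treatment that depletes macrophages, and was labelled as inflamed to some degree with no tumour seen. The KA2 lung came from a KA/KA-Lori-Ikkα mouse whose labels name no depletion, and combined squamous cell carcinoma with the tissue beside it. The WT lung was normal lung of a wild type mouse. In the published line, KA/KA stands for a kinase-dead allele of the IKKα gene on both chromosomes, and Lori-Ikkα for an IKKα transgene under the loricrin promoter, which is active in differentiating keratinocytes. Both mutant lungs carried both changes, and the agent used for depletion is not given in the labels. With 1 array in each group no value has an error, no p-value was computed, and every difference describes these 3 arrays. The KA2 array also differed from the others in sex-linked genes. Xist, the RNA of the inactive X chromosome, read 133 in KAT lung, 15608 in KA2 lung and 188 in WT lung.

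Heart muscle cells contract through sarcomeres, in which thick filaments of myosin heavy and light chains slide along thin filaments of actin under the control of troponin and calcium. Calcium is released from and pumped back into the sarcoplasmic reticulum at each beat. Muscle cells of the atria also secrete atrial natriuretic peptide, a hormone that promotes salt excretion and lowers blood pressure. In mice, heart muscle continues from the left atrium along the walls of the pulmonary veins into the lung, so a whole lung can hold some cardiomyocytes. How much atrium, vein or other muscle each sample held is not given in the labels.

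The sequences upstream of the members are shown as a description of these genes, which were all lower in both mutant lungs than in WT lung. Whether the sequences bear on that difference was not tested. RefSeq start sites of build GRCm38.p6 were given for 3 of the 4 genes, and the 250 bases before each start are printed 5′ to 3′ on the gene's strand. Capitals mark matches on either strand to the GATA factor box (AGATAA, also with T as its first or G as its last letter), the MCAT box (CATTCC), the MEF2 box and the CArG box, all of which are known from promoters of muscle genes.
Myh6, chr14:54966608-54966857, minus strand: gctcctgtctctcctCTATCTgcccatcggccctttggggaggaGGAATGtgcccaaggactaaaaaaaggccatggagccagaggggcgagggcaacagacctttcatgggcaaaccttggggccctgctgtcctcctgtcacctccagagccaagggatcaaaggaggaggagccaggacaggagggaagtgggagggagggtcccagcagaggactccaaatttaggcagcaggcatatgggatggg
Myl3, chr9:110763428-110763677, plus strand: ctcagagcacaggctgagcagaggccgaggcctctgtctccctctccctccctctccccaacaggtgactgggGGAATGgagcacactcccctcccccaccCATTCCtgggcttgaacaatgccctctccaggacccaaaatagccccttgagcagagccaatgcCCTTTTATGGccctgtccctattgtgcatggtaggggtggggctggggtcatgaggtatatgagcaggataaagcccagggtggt
Nppa, chr4:148000472-148000721, plus strand: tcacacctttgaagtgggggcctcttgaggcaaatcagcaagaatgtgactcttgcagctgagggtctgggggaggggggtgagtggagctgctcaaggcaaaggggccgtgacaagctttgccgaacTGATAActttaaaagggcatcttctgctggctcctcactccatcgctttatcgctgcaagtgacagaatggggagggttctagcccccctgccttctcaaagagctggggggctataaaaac

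In the 300-base windows (250 before and 50 after the start), Myh6, Myl3 and Nppa each held a GATA factor box, as did 29.8% of all 32851 promoter windows. The match of Myl3 lay after the start and is not printed. The MCAT box occurred 1 time for Myh6 and 2 times for Myl3, and was not in the Nppa window, while 14.7% of all windows held it. Myl3 also had a CArG box, CCTTTTATGG, from position -85 to -76 before the start. CArG boxes were present in 1.63% of all windows. No MEF2 box was in the 3 windows, against 3.19% of all windows. The E-box (CANNTG) was in all 3 windows and in 72.3% of all windows. No 2 matches of different boxes overlapped in the printed stretches. A match is a run of letters and was not tested as a binding site.

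Myh6 encodes the alpha myosin heavy chain, the main motor of the adult mouse heart. Its intensity was 3216 in KAT lung, 35.1 in KA2 lung and 11009 in WT lung. The WT and KAT arrays were thus bright, while the KA2 array read below its 25th percentile (35.5). Any value below its array's 25th percentile is taken here as that percentile, and a fold against it is a lower bound ("at least"). Myh6 was 3.42-fold lower in KAT lung than in WT lung and at least 310-fold lower in KA2 lung than in WT lung. It was at least 90.6-fold higher in KAT lung than in KA2 lung. For Myh6 the ratios in the authors' deposited table are 4.62-fold, 261-fold and 56.5-fold in the same directions. In whole tissue, fewer cardiomyocytes and less RNA per cardiomyocyte cannot be told apart.

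Nppa encodes the precursor of atrial natriuretic peptide. It read 83.6 in KAT lung, 34.6 in KA2 lung and 2002 in WT lung. Here the WT array alone was bright, and the KAT array lay between its 25th percentile and its median. Nppa was 24.0-fold lower in KAT lung than in WT lung and at least 56.4-fold lower in KA2 lung than in WT lung. For Nppa these differences are 21.0-fold and 26.6-fold in the authors' deposited table. Both mutant arrays were below their medians for Nppa, so KAT and KA2 lung were not compared.

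Dhrs7c encodes a short-chain dehydrogenase of the sarcoplasmic reticulum, found in heart and skeletal muscle. Its intensity was 22.3 in KAT lung, 6.92 in KA2 lung and 330 in WT lung. Both mutant arrays were below their 25th percentiles. Dhrs7c was at least 9.42-fold lower in KAT lung and at least 9.28-fold lower in KA2 lung than in WT lung. In the authors' deposited table Dhrs7c is 2.94-fold lower in KAT lung and 3.80-fold lower in KA2 lung, so the size of its difference was not the same in both sources.

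Myl3 encodes the essential myosin light chain of the ventricle and of slow skeletal muscle. It read 6.87 in KAT lung, 2.43 in KA2 lung and 161 in WT lung. The WT value was close to that array's median of 128, and both mutant values were far below their 25th percentiles. Myl3 was at least 4.61-fold lower in KAT lung and at least 4.54-fold lower in KA2 lung than in WT lung. By the authors' deposited table Myl3 is 3.02-fold lower in KAT lung and 2.72-fold lower in KA2 lung. The probe set of Myl3 is of a kind that can match more than 1 transcript, which makes its level uncertain. Between KAT and KA2 lung the 2 dim intensities of Myl3 and the ratio in the authors' deposited table (1.11-fold lower in KAT lung) went opposite ways.

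**Figure D1:**
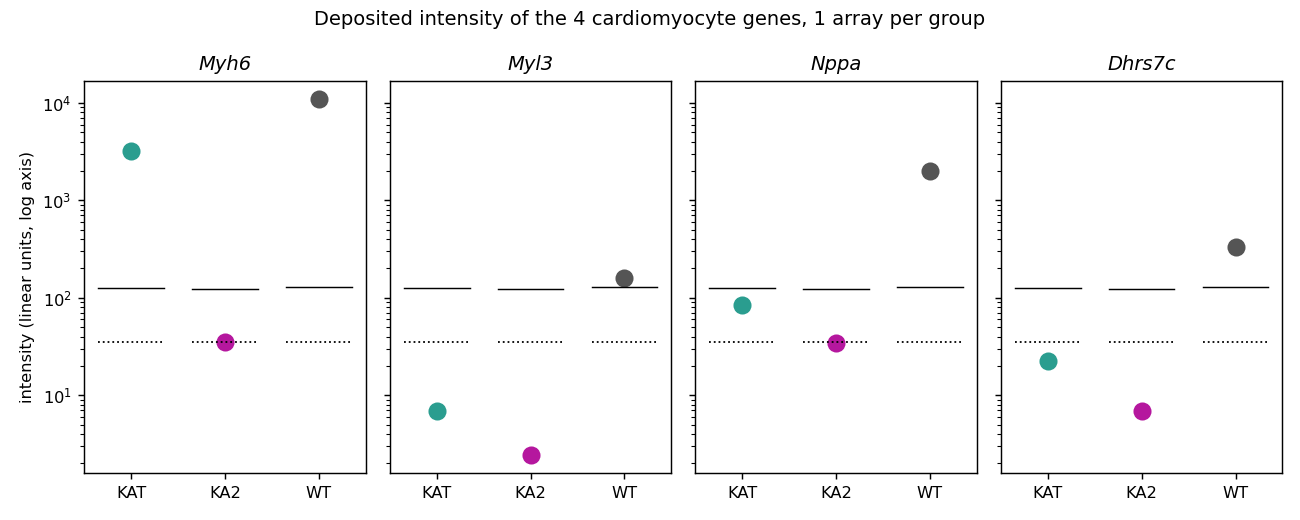
Intensity (linear units on a log axis) of Myh6, Myl3, Nppa and Dhrs7c on the KAT, KA2 and WT arrays, 1 point per array. Solid bars are each array's median and dotted bars its 25th percentile; the WT point is the highest in all 4 panels, and Myh6 is the member whose KAT point (3216) also lies above the median.

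All 4 probe sets were at least 2-fold lower in KA2 lung than in WT lung, beside 10.4% of the 24438 probe sets kept for that comparison (9.26% were higher). A probe set was kept where the brighter of the arrays compared reached its own median. All 4 were also at least 2-fold lower in KAT lung than in WT lung, beside 6.33% of 24074 probe sets (6.24% were higher). These comparisons chose the members, and they share the WT array. In KAT lung against KA2 lung 1 member passed the filter, Myh6, and it was higher, as were 7.7% of 24243 probe sets (7.26% were lower). The smallest fold listed was 2.00 in each authors' deposited table. The members nearest to that limit there were Myl3 (2.72-fold, KA2 against WT) and Dhrs7c (2.94-fold, KAT against WT). Nppa, Dhrs7c and Myl3 were not listed for KAT against KA2, where by the authors' deposited table Nppa is 1.27-fold and Dhrs7c 1.29-fold higher in KAT lung and Myl3 is 1.11-fold lower in KAT lung.

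Myh6 and Nppa differed in the share of the WT signal seen in KAT lung. Myh6 in KAT lung was at 29.2% of its WT intensity, while Nppa was at 4.18%. By the authors' deposited table these shares are 21.6% for Myh6 and 4.76% for Nppa. For the dim members the KAT intensities gave at most 10.6% for Dhrs7c and 21.7% for Myl3, but the authors' deposited table has 34.0% for Dhrs7c and 33.1% for Myl3, so their place beside Myh6 is not settled. To place them, the genes of the heart sarcomere list and the heart calcium handling and excitation list were used, without the members. Of these 72 genes 47 were named by the deposited tables, and 32 of them had a WT intensity at or above the 75th percentile (560). Choosing genes that are bright in WT lung favours low percentages of WT, so these values are a description only. Their KAT intensity was 9.07% to 76.4% of WT, with a median of 24.1%. None of the 32 was below Nppa in that percentage, by the intensities or by the ratios in the authors' deposited table. By intensity 10 were above Myh6. Above Myh6 by the authors' deposited table were 17, and the median of the 32 there was 22.8%. In KA2 lung 8 of the 32 were below the 25th percentile, and with those raised to it the median was 7.57% of WT. KAT lung had the higher intensity of the 2 mutant lungs for 27 of the 32.

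**Figure D2:**
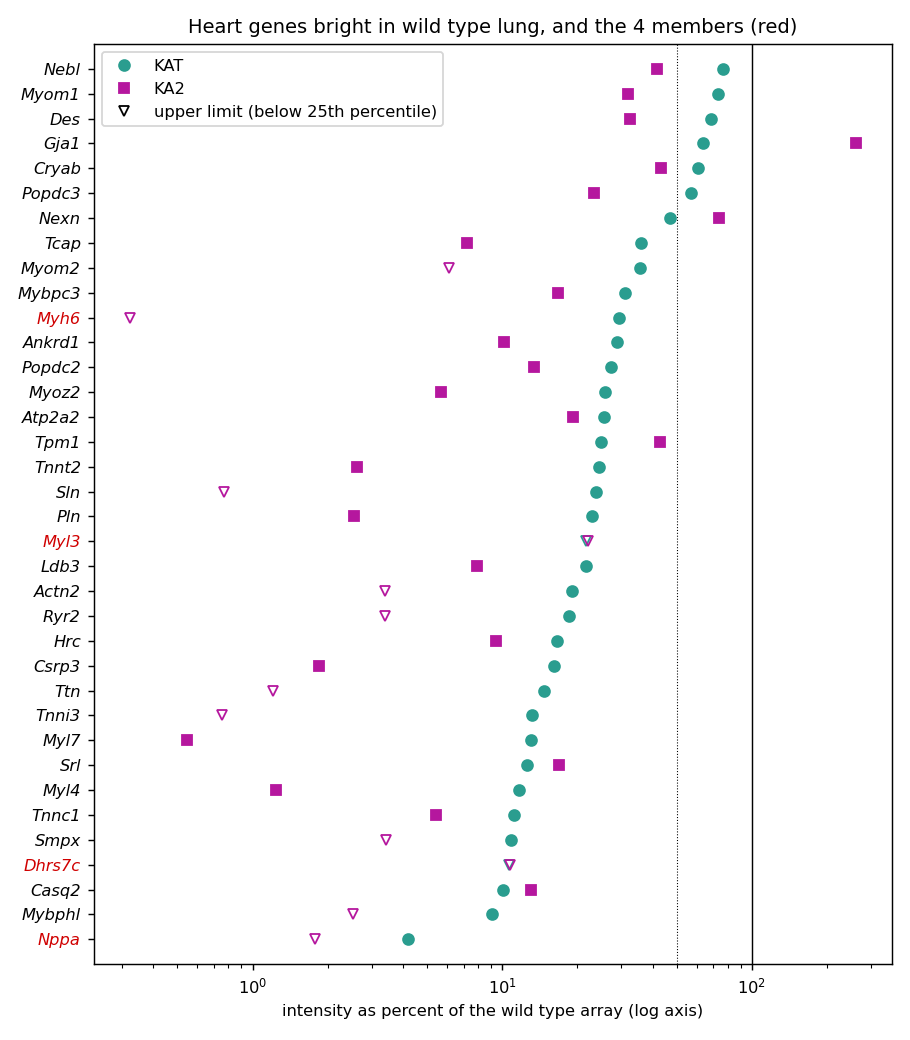
Intensity as a percent of the WT array (log axis) for the 32 heart genes bright in WT lung and the 4 members (red names), ordered by the KAT value. Circles are KAT lung, squares KA2 lung and open triangles upper limits; Nppa has the lowest KAT value at 4.18%, and Myh6 has 29.2% in KAT lung beside an upper limit of 0.322% in KA2 lung.

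Other sarcomere genes were lower in the mutant lungs as well. Of 33 named sarcomere genes (list of 40, members included) 31 were bright enough to compare. At least 2-fold differences from WT were seen in KAT lung for 26, of which 25 were lower, and the median log2 difference was -1.96. In KA2 lung 28 were lower, 1 was higher and the median stood at -4.14, or -3.55 once dim values were raised. Over all named genes 21.1% were lower and 24.6% higher in KAT lung, 38.2% were lower and 37.6% higher in KA2 lung, and the medians were -0.067 and -0.11. The naming selects genes that differed, so these shares are not those of all genes.

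Myl7, the regulatory light chain of the atrium, read 1157 in KAT lung, 48.6 in KA2 lung and 8898 in WT lung. Myl4, the essential light chain of the atrium, read 867, 92.4 and 7449 in the same order of KAT, KA2 and WT. These light chains were 7.69-fold and 8.59-fold lower in KAT lung, and 183-fold and 80.6-fold lower in KA2 lung, than in WT lung. Tnnt2, cardiac troponin T, read 2098 in KAT lung, 225 in KA2 lung and 8557 in WT lung. Tnnt2 was 38.1-fold lower in KA2 lung than in WT lung, where the authors' deposited table has 86.2-fold.

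Other bright genes of the same list are also expressed outside heart muscle. Cryab, a small heat shock protein, was 1.65-fold lower in KAT lung and 2.32-fold lower in KA2 lung. Its second probe set had larger log2 differences from WT, of -1.94 in KAT lung and -2.16 in KA2 lung. Nebl, an actin-binding protein, was 1.31-fold and 2.39-fold lower in KAT and KA2 lung. Tpm1, a tropomyosin of several muscle types, was 4.02-fold lower in KAT lung and 2.34-fold lower in KA2 lung. For Tpm1 the KA2 lung had the higher signal of the 2 mutants (1394 in KAT lung, 2392 in KA2 lung). Its second probe set was dim in both mutant lungs, with 39.4 in KAT lung and 2.36 in KA2 lung. Both readings were below their array medians, so its opposite order was not counted. Fbxo32, a ubiquitin ligase of muscle wasting, was at least 2-fold higher than WT in both mutant lungs (2.84-fold in KAT lung, 4.79-fold in KA2 lung). Neb, the thin filament protein nebulin, was below the median on every array and was not counted. It read 108 in KAT lung, 118 in KA2 lung and 4.69 in WT lung, and is 2.77-fold and 2.50-fold higher in KAT and KA2 lung in the authors' deposited table. Fbxo32 and Neb are named for their direction, after their values were seen.

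Genes that handle calcium, the group to which Dhrs7c belongs, were also mostly lower in the mutant lungs. Of 17 named genes (list of 35, Dhrs7c included) 15 were compared with WT. Of these 13 were lower by 2-fold or more in KAT lung and none higher, and the median log2 difference was -2.13, or -2.08 once dim values were raised. In KA2 lung 14 were lower, 1 was higher and the median was -2.94, or -2.70 once dim values were raised. Dhrs7c was chosen by these differences. Without the members, 43 genes of the sarcomere and calcium lists together were compared with WT. In KAT lung 35 of the 43 were lower and 1 was higher, beside 21.1% and 24.6% of all named genes. In KA2 lung 39 were lower and 2 were higher, beside 38.2% and 37.6%. Sln, the calcium pump inhibitor sarcolipin, read 1093 in KAT lung, 11.2 in KA2 lung and 4614 in WT lung. It was at least 130-fold lower in KA2 lung than in WT lung, where the authors' deposited table has 41.9-fold.

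Pln, the pump inhibitor phospholamban, read 406 in KAT lung, 45.3 in KA2 lung and 1782 in WT lung. It was 4.39-fold lower in KAT lung and 39.4-fold lower in KA2 lung than in WT lung, with 23.0-fold for KA2 lung in the authors' deposited table. The other Pln probe sets were also lower, with log2 differences of -2.22 and -2.96 in KAT lung and of -4.59 and -8.29 (dim values as deposited) in KA2 lung. Ryr2, the calcium release channel of heart muscle, read 195 in KAT lung, 23.9 in KA2 lung and 1047 in WT lung. Both genes were thus low in both mutant lungs and lowest in KA2 lung. Atp2a2, the calcium pump that most cells express in one form, was 3.92-fold lower in KAT lung and 5.19-fold lower in KA2 lung. Srl, the calcium-binding protein sarcalumenin, was 7.99-fold and 5.91-fold lower in KAT and KA2 lung. Gja1, the gap junction protein connexin 43 of heart muscle and many other cells, was the list member higher in KA2 lung, with 1941 in KAT lung, 8007 in KA2 lung and 3062 in WT lung.

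Between the mutant lungs, 33 of the 47 named sarcomere and calcium genes other than the members could be compared. In KAT lung 23 were at least 2-fold higher than in KA2 lung, 2 were lower (Gja1 and Fhl2, a LIM protein of heart and other tissues) and 8 were under 2-fold, with a median log2 difference of 1.45, beside 29.5% of all named genes higher, 27.4% lower and a median of 0.26. By the ratios in the authors' deposited tables, 19 were higher and 2 were lower. Sln was at least 30.8-fold higher in KAT lung (10.02-fold in the authors' deposited table) and Myl7 23.8-fold. Tnnt2 was 9.33-fold higher in KAT lung, or 18.6-fold in the authors' deposited table.

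**Figure D3:**
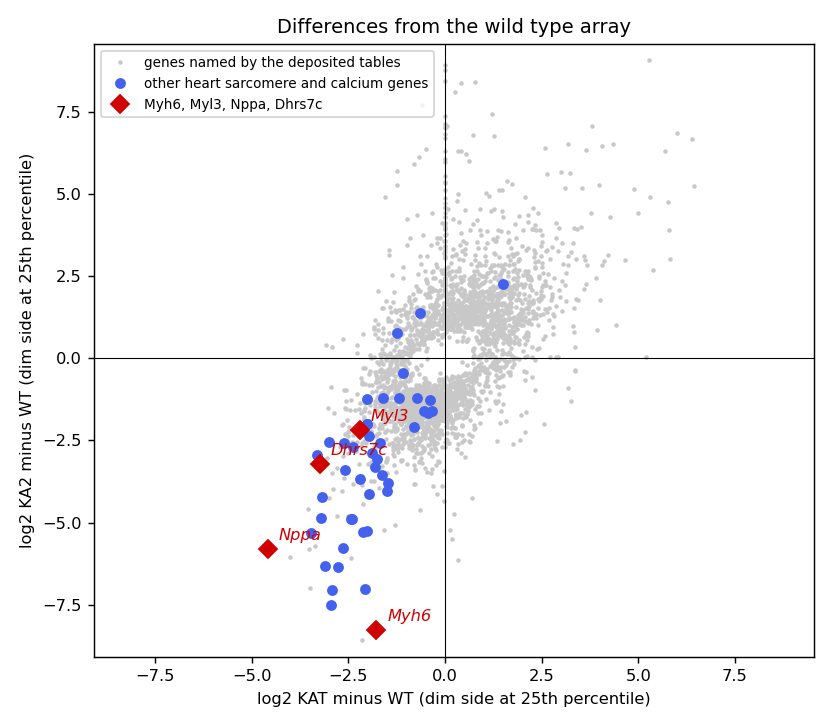
Log2 difference of KAT from WT (horizontal) and of KA2 from WT (vertical) for the named genes bright enough to compare, with values below an array's 25th percentile raised to it. Red diamonds are the 4 members and blue points the other heart sarcomere and calcium genes; Nppa lies farthest left at -4.58, and Myh6 lowest of the members at -8.28.

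The light chains and peptide hormones of heart muscle differ between chambers, and lists for each were examined. Of 15 atrial genes 8 were named. Of 7 compared with WT, 5 were lower in KAT lung and 6 in KA2 lung, among them Myh6, Nppa, Myl7, Myl4 and Sln. Among all named genes 21.1% were lower in KAT lung and 38.2% in KA2 lung. Myh6 and Nppa were chosen by this difference, and Myh6, the main motor of the adult mouse heart, is not particular to the atria. Dkk3, also compared, read 397 in KAT lung, 1086 in KA2 lung and 622 in WT lung. It was under 2-fold from WT in both mutant lungs, and higher than WT in KA2 lung. Nr2f2, a transcription factor of atria, veins and other cells, was 1.67-fold lower in KAT lung and 2.57-fold lower in KA2 lung. Of 10 ventricular genes 3 were named (Myl3, Pln and Mpped2), and the ventricular markers Myl2 and Myh7 were not among the named genes and are not analysed here. Mpped2, a metallophosphoesterase, was 1.90-fold lower in KAT lung and 3.63-fold lower in KA2 lung than in WT lung (2.26-fold for KA2 lung in the authors' deposited table). Which chamber or vessel the signal came from was not tested.

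Around Nppa, 5 of 10 genes for natriuretic peptides, their processing and their receptors were named. Of the 5, KAT lung had 2 that were lower than WT by 2-fold or more and none higher. In KA2 lung 3 were lower and 1 was higher. The 5 include Nppa, which was chosen by this difference. Apart from Nppa, the gene lower by 2-fold or more was Npr2 in KAT lung, and those in KA2 lung were Npr3 and Pcsk6. Over all named genes 21.1% were lower in KAT lung and 38.2% in KA2 lung. Corin, the protease that cleaves the Nppa precursor on heart muscle cells, read 110 in KAT lung, 2374 in KA2 lung and 220 in WT lung. Corin was thus 10.8-fold higher in KA2 lung than in WT lung, in the sample where Nppa was below the 25th percentile. It was 21.5-fold lower in KAT lung than in KA2 lung, where the authors' deposited table has 11.6-fold. Npr2, the receptor of C-type natriuretic peptide, was 2.69-fold lower in KAT lung and 1.82-fold lower in KA2 lung. Npr3, the clearance receptor, was 1.24-fold lower in KAT lung and 2.60-fold lower in KA2 lung. Pcsk6, a convertase that activates Corin, was 1.79-fold and 3.10-fold lower in KAT and KA2 lung.

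Of 21 cardiac transcription factor genes 4 were named. Smyd1, a muscle methyltransferase, read 45.7 in KAT lung, 18.9 in KA2 lung and 260 in WT lung. Shox2, a factor of the sinus node and pulmonary vein muscle, read 47.5 in KAT lung, 23.5 in KA2 lung and 156 in WT lung. Both were at least 2-fold lower than WT in both mutant lungs. Hopx and Tbx3, which lung cells also express, were under 2-fold from WT in KAT lung, and Tbx3 was 3.21-fold lower in KA2 lung. A dimmer probe set of Tbx3 was higher in KAT lung than in WT lung (log2 1.61).

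Genes of oxidative muscle metabolism went mostly the same way. Of 17 named genes (list of 41), 11 were lower than WT by 2-fold or more in KAT lung, none was higher, and the median log2 difference was -1.82. In KA2 lung 14 were lower, 2 were higher (Lpl and Hk2) and the median was -2.72. Beside these counts, 21.1% of all named genes were lower and 24.6% higher in KAT lung. In KA2 lung those shares were 38.2% and 37.6%. Mb, the oxygen store myoglobin, read 283 in KAT lung, 57.3 in KA2 lung and 3235 in WT lung, which is 11.4-fold and 56.4-fold lower than WT. For Mb the authors' deposited table has 8.68-fold in KAT lung and 24.8-fold in KA2 lung. Fabp3, the heart fatty acid binding protein, was 4.32-fold lower in KAT lung and 21.6-fold lower in KA2 lung. Cox6a2, the muscle form of a cytochrome oxidase subunit, was 3.53-fold and 6.82-fold lower in KAT and KA2 lung. The widely expressed Slc25a4, Ldhb and Acsl1 were 1.44-fold to 1.78-fold lower in KAT lung and 1.52-fold to 2.09-fold lower in KA2 lung.

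The 10 named genes listed next had patterns nearest to the mean of the members, with all values as deposited, by Euclidean distance in the plane of the log2 differences of KA2 and KAT from WT, among 1377 named genes bright in WT lung. The mean (log2 -6.44 for KA2 and -3.70 for KAT) thus includes the dim readings of Myl3, Dhrs7c, Myh6 and Nppa. With 2 differences from 3 arrays, this is a coarse measure of likeness. They were Fabp1, Smpx, Mybphl, Car3, Myl4, Mb, Ckmt2, Ttn, Pgam2 and Csrp3, at distances of 0.33 to 1.26. Myh6 itself lay 2.67 from that mean and Nppa 1.06. Of the 10, 8 stand in the heart or muscle metabolism lists, beside 2.67% of the 2813 named genes compared between KA2 and WT lung. The share among the 1377 genes was not computed. Because the members were chosen by these differences, the count is a description only. Once dim values were raised, an alternative chosen after seeing the data, the mean was at -4.87 for KA2 and -2.95 for KAT, and 3 of the 10 (Smpx, Mybphl and Pgam2) stayed among the nearest. The other genes nearest then were Adipoq, Cox8b, Ryr2, Actn2, Slc7a10, Tnnc1 and Nptx1, so the choice of neighbours rests on how dim readings are treated. Of the 10 nearest with dim values raised, 7 stand in the same lists. Csrp3, a muscle LIM protein, was 6.23-fold lower in KAT lung and 54.3-fold lower in KA2 lung than in WT lung (29.3-fold for KA2 in the authors' deposited table). Fabp1, a fatty acid binding protein of liver and gut, was nearest, with 146 in KAT lung, 24.9 in KA2 lung and 2342 in WT lung. It was 16.1-fold lower in KAT lung and at least 66.0-fold lower in KA2 lung than in WT lung, where the authors' deposited table has 8.37-fold in KAT lung and 26.5-fold in KA2 lung. Car3, a carbonic anhydrase of fat and slow muscle, read 595 in KAT lung, 52.9 in KA2 lung and 6677 in WT lung. Its second probe set had smaller log2 differences from WT, of -2.31 in KAT lung and -3.74 in KA2 lung.

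In KA2 lung 41 named genes were at least 16-fold lower than in WT lung. Of these 22 were in the heart or muscle metabolism lists, Myh6 and Nppa included, which were chosen by this difference. Of all 2813 named genes compared, 75 (2.67%) were in these lists. The lists were chosen with earlier results of these data known, so the contrast is a description only. The 41 also included Ddx3y, Eif2s3y and Uty of the Y chromosome, beside the difference of the KA2 array in sex-linked genes. In KAT lung 2 named genes were at least 16-fold lower than in WT lung, Nppa and Fabp1.

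Markers of other tissues that could adjoin the lung differed too, and their part in the results was not tested. Their counts stand beside 21.1% of all named genes lower and 24.6% higher than WT in KAT lung. In KA2 lung 38.2% were lower and 37.6% higher. Skeletal muscle had 7 of 40 list genes named. Their summed intensity was 1674 in KAT lung, 1003 in KA2 lung and 3815 in WT lung. The fast muscle genes Myh1, Myh4, Acta1 and Tnnt3 were not named and are not analysed here. Of the skeletal genes compared, 4 of 6 were lower in KAT lung and 5 of 6 in KA2 lung, among them Ckm and Eno3, which heart also expresses. Ryr1, the calcium release channel of skeletal muscle, went the other way, 2.47-fold higher in KAT lung and 2.46-fold higher in KA2 lung than in WT lung. Tmod4 was under 2-fold from WT in KAT lung (log2 -0.30). Smooth muscle genes (11 of 20 named) summed to 10706 in KAT lung, 9032 in KA2 lung and 21243 in WT lung, with 6 of 11 lower in KAT lung and 8 of 11 in KA2 lung. Pln, Des, Ldb3 and Casq2 of the smooth muscle list are also in the heart lists.

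Adipocyte genes (14 of 24 named) summed to 10976 in KAT lung, 8226 in KA2 lung and 22209 in WT lung. Of these, 8 were at least 2-fold lower in KAT lung than in WT lung and none was higher. In KA2 lung 10 were lower and 3 were higher (Fabp4 3.18-fold, Dio2 2.77-fold and Lpl 2.15-fold). Mesothelium and pericardium genes (9 of 14 named) summed to 8335 in KAT lung, 6542 in KA2 lung and 20934 in WT lung, and 6 and 7 were lower in KAT and KA2 lung. Lung endothelial genes (16 of 20 named) summed to 67156 in KAT lung, 19276 in KA2 lung and 75994 in WT lung, with 3 of 16 lower and 1 higher (Vegfc) in KAT lung and 13 of 16 lower in KA2 lung. Alveolar epithelial genes (7 of 20 named) summed to 55341, 26235 and 57894 in KAT, KA2 and WT lung, with 3 and 4 of 7 lower than WT in KAT and KA2 lung. All 7 were above the median on each array, including Ager and Cav1 of type I cells. The counts of these tissue lists stand beside 21.1% of all named genes lower and 24.6% higher in KAT lung. In KA2 lung the shares were 38.2% lower and 37.6% higher.

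Erythroid genes (5 of 20 named) summed to 6214 in KAT lung, 11551 in KA2 lung and 10895 in WT lung. Car2, which other tissues also express, weighed most in these sums, with 3013, 7403 and 4106 in KAT, KA2 and WT lung. The sums therefore do not stand for red cell genes as a group. In KAT lung 3 of the 5 were at least 2-fold lower than WT, among them Alas2, and 1 was higher, Ahsp. In KA2 lung 1 of the 5 was lower, beside 38.2% of all named genes. In KAT lung 21.1% of all named genes were lower and 24.6% higher. Nerve and Schwann cell genes (5 of 18 named) gave no common picture. Pmp22, which many cells express, was the brightest at 9591 in KAT lung, 6512 in KA2 lung and 14236 in WT lung, while Mal read 413 in KAT lung, 1653 in KA2 lung and 607 in WT lung. The thymus list had 6 of 18 genes named (Cd3d, Cd8a, Cd8b1, Lck, Satb1 and Tcf7), which are genes of T cells in general. The thymus genes Rag1, Rag2, Dntt and Foxn1 were not named and are not analysed here. The named genes went the other way from the members, with sums of 11070 in KAT lung, 4178 in KA2 lung and 2273 in WT lung. All 6 of these were at least 2-fold higher in KAT lung than in WT lung, beside 24.6% of all named genes.

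**Figure D4:**
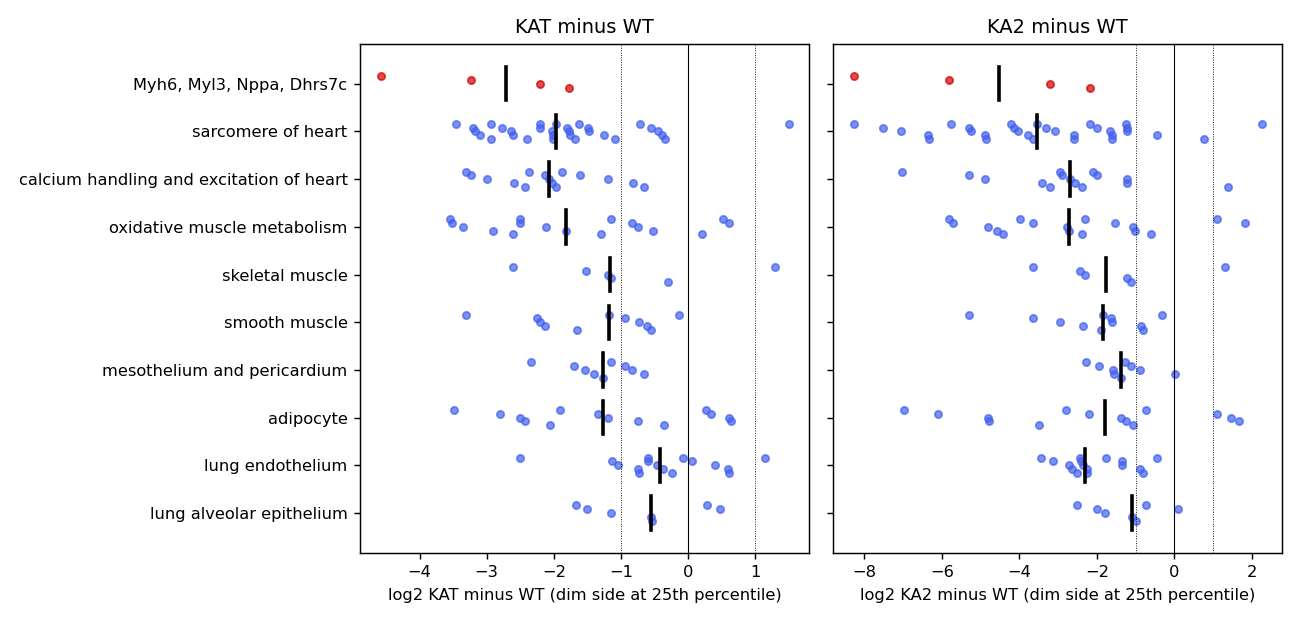
Log2 difference from WT of each named gene bright enough to compare, for KAT (left) and KA2 (right), by list, with values below the 25th percentile raised to it. Black bars are list medians and dotted lines 2-fold; the sarcomere median is -1.96 in KAT lung and -3.55 in KA2 lung, and the endothelial median is -0.42 in KAT lung and -2.31 in KA2 lung.

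The order of Nppa and Myh6 in KAT lung was the same in the intensities and in the deposited ratios, and the order of the dim members was not. Both describe the same 3 arrays, so they are not separate measurements. By the ratios in the authors' deposited table, KAT was 21.0-fold lower than WT for Nppa, 4.62-fold for Myh6, 3.02-fold for Myl3 and 2.94-fold for Dhrs7c. By intensity, Dhrs7c and Myl3 were farther below WT than Myh6 was. With dim values raised to the array median in place of the 25th percentile, the log2 differences were -1.37 for Dhrs7c and -0.34 for Myl3, both nearer to WT than Myh6. Scaling to the hybridization controls, which were higher on the KAT and KA2 arrays than on the WT array by a median log2 of 1.18 and 1.00, lowers every mutant value by its array's amount. The log2 differences from WT were then -5.77 for Nppa and -2.96 for Myh6 in KAT lung.

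**Figure D5:**
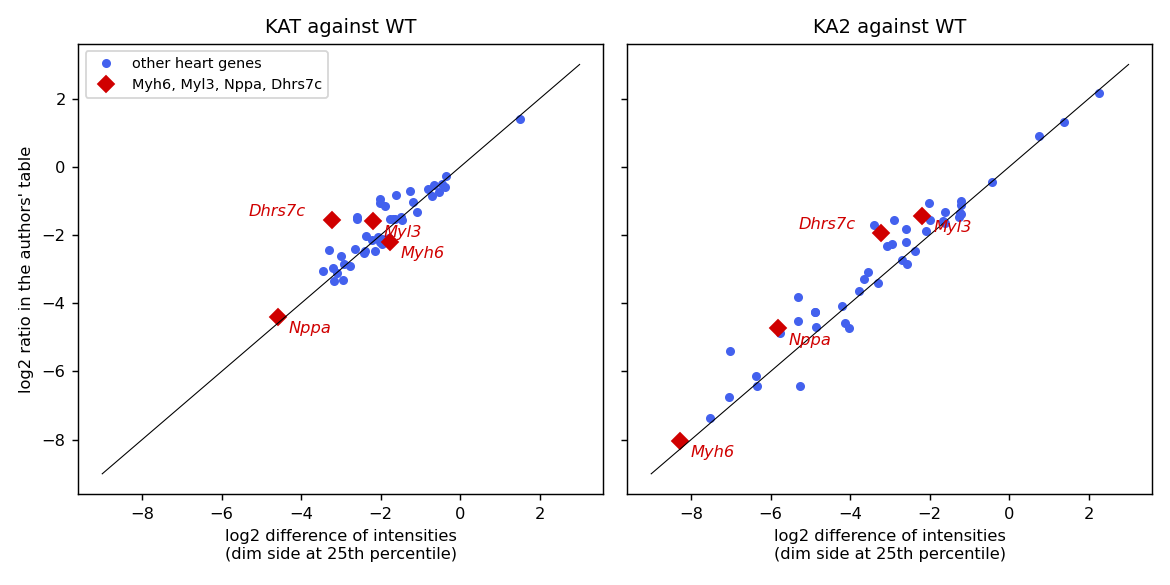
Log2 ratio in the authors' deposited table (vertical) against the log2 difference of the intensities (horizontal, dim values raised to the 25th percentile) for KAT against WT (left) and KA2 against WT (right). The line marks equal values; in the left panel Nppa and Myh6 lie near it, while Dhrs7c lies above it, with a table ratio of -1.56 beside an intensity difference of -3.24 in KAT lung.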

How the data were processed

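Total RNA from lung homogenates was labelled with biotin and hybridised to Affymetrix arrays, per the labels' protocols. The authors deposited 1 linear intensity for every probe set on each array. The sources used here do not say how it was summarised or scaled. The submitters' processing notes name Partek, with no version. The authors' 3 deposited lists add a linear fold ratio for every pair of lungs, per the file headers. Across 4276 listed probe sets these ratios and the intensity differences, both on the log2 scale, had correlations of 0.90 to 0.94. The array medians were 127 (KAT), 124 (KA2) and 128 (WT), which leaves the kind of scaling unknown.

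Intensities were put on the log2 scale with no further scaling. Names came from the deposited lists (4310 probe sets), in which 3858 probe sets carried 1 gene symbol, 180 several and 238 no symbol, and 34 were controls. RefSeq's table of GRCm38.p6 was used to bring symbols up to date. Each gene was read from its brightest listed probe set by mean intensity. Comparisons kept probe sets whose brighter value reached the 50th percentile of its array, and values below the 25th percentile were raised to it. Calls are differences of at least 2-fold. No test was possible with 1 array per group. The members, gene lists and the rule for named genes (up to 6 per heart list by WT intensity, up to 3 per other list, and the 10 nearest patterns) were chosen with earlier results of these data known. The 2-fold calls of KA2 against WT were tried on simulated arrays with changes planted in bright probe sets. Lower bounds, gene naming, nearest patterns and promoter matches were not tried in that way. Python 3.11.15 was used with numpy 2.4.6, pandas 2.3.3 and matplotlib 3.10.9.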

Additional observations from a re-analysis of the deposited data

How the results depend on the processing

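No paired analysis was possible because each group had 1 array. The alternatives were array medians made equal, quantile normalization, scaling to hybridization controls, floors at the 10th or 50th percentile or none, log2(intensity + 32), no level filter or one at the 75th percentile, thresholds of 1.5-fold and 3-fold, each gene's median probe set, omission of shared-sequence probe sets, and the authors' deposited ratios. Of the recomputed counts of members or heart genes at least 2-fold apart, 80 stayed within 1.5 times the reported count and 4 did not. With the filter at the 75th percentile 2 members passed, and both were lower than WT in KAT lung and in KA2 lung (2 and 2), while 10 heart genes were apart between KAT and KA2 lung. Without a level filter 2 members were apart between KAT and KA2 lung, as Nppa joined Myh6. No recomputed member difference changed sign, but between KAT and KA2 lung the difference was recomputed for Myh6 alone. Of these differences 87 stayed within 1.5-fold and 33 moved further. Thresholds, level filters, the median probe set and omission of shared-sequence probe sets cannot change a member's log2 difference. Rows from those settings are among the 87, so that count does not measure stability. The 33 moves came from the floors, log2(intensity + 32), hybridization control scaling and the authors' deposited ratios. Across settings the log2 difference from WT in KAT lung was -2.96 to -1.76 for Myh6 and -5.77 to -3.98 for Nppa, and in KA2 lung -9.28 to -6.47 for Myh6 and -6.82 to -4.01 for Nppa. For Myl3 it was -4.55 to -0.34 in KAT lung and -6.05 to -0.38 in KA2 lung, so with the floor at the median Myl3 was under 2-fold in both. For Dhrs7c it was -4.42 to -1.37 in KAT lung and -5.57 to -1.41 in KA2 lung. The alternative for the nearest patterns was added after seeing the data, and 3 of the 10 were shared. Signal near background limits what can be said of Myl3 and Dhrs7c in the mutant lungs.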
